A study of Arabidopsis thaliana with 9 samples.

Results

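The WRKY genes encode plant transcription factors, and 53 of them were followed here in leaf RNA of Arabidopsis thaliana, out of 33302 features in the expression table. Members were taken from a list of gene identifiers, and each of the 53 had a row of its own. RefSeq gives a WRKY name to 72 Arabidopsis genes, so 19 further family genes are outside the list. RNA came from 4 libraries, 2 per group. The K36M plants were Columbia-0 with an inserted histone H3 gene (a copy of HTR5, AT4G40040) in which lysine 36 is replaced by methionine. The WT plants were Columbia-0 with the same gene inserted unmutated, so both groups carried a transgene on top of the endogenous HTR5. Leaves were taken at 21 days from plants grown in soil at 23 °C under 16 h of light and 8 h of dark. The labels call the libraries of each group biological duplicates. They do not give the promoter of the transgene, the zygosity of the K36M plants used for RNA or the number of plants per library, and the effect of the mutation cannot be told apart from that of the insertion site or copy number. The study also lists 5 H3K36me3 chromatin immunoprecipitation libraries, which were not analysed here. Histone H3 with this mutation is known to interfere with methylation at lysine 36, a mark of transcribed gene bodies, and the comparison asks which transcripts differ in its presence.

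WRKY factors share a DNA-binding domain named after its conserved amino acids and bind W-box elements in promoters, including those of many defence genes and of WRKY genes themselves. Group I proteins carry a pair of these domains, group II proteins carry a single one and are split into subgroups IIa to IIe, and group III proteins differ in the zinc finger of the domain. In leaves the family is best known for immunity: mitogen-activated protein kinases (MAPKs) phosphorylate some WRKY proteins, VQ-motif proteins bind others, and many WRKY genes are induced by the hormone salicylic acid. Other members act in senescence, phosphate supply, heat and drought tolerance, trichomes and flowering.

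Expression is given as FPKM, a count of fragments divided by gene length and library size, so levels can be compared between genes. The libraries were unequal, with FPKM summing to between 766727 and 2150314 and 1.39% to 34.59% of the sum in a single feature, AT2G01021. WT replicate 1 stood apart, with Pearson r across tested genes of 0.821 to 0.834 to the other libraries, which correlated with each other at 0.937 to 0.95. HTR5 itself was at 391 and 582 FPKM in K36M and at 322 and 711 FPKM in WT, a reading that does not separate the mutated from the unmutated copy. All 4 photosynthesis markers were abundant, with summed levels of 39366 and 46555 FPKM in K36M and of 33954 and 81138 FPKM in WT. The summed level of both shoot meristem markers (STM, KNAT1) was 14.7 and 11.6 FPKM in K36M, against 0.0354 FPKM in WT replicate 1 and 12.4 FPKM in WT replicate 2, STM being listed at 0 in WT replicate 1. The 3 floral organ markers (AP3, PI, SEP3) summed to 7.77 and 15.0 FPKM in K36M and to 0.444 and 1.32 FPKM in WT, with AP3 at 0 in both WT libraries. Both epidermis markers summed to 331 and 233 FPKM in K36M, against 18.3 FPKM in WT replicate 1 and 424 FPKM in WT replicate 2. The low sum came from PDF1, with 313 and 213 FPKM in K36M and 4.81 and 404 FPKM in WT. The other marker, ATML1, had 17.6 and 19.4 FPKM in K36M and 13.5 and 20.1 FPKM in WT. Trichome, guard cell and vascular markers were above 0 in every library, except GL1 (MYB0 in RefSeq), which was listed at 0 in WT replicate 1. Bulk RNA cannot tell fewer cells of a type from less RNA per cell, and the part of tissue makeup in the results below was not tested.

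Most listed WRKY genes were expressed in leaves, few of them strongly. Of the 53, 43 had a mean of at least 1 FPKM over the 4 libraries, the minimum used for testing. WRKY29, WRKY30, WRKY55 and WRKY63 reached it through WT replicate 1 alone, being under 1 FPKM in every other library. WRKY38, WRKY51 and WRKY58 reached it through WT, being under 1 FPKM in both K36M libraries. All of these enter the counts and medians of tested members below. A mean of at least 5 FPKM was reached by 22, at least 10 FPKM by 15 and at least 20 FPKM by 6, while WRKY61 (AT1G18860) was listed at 0 throughout. In K36M, 37 and 34 members reached 1 FPKM, and in WT 43 and 40 did, with 30 members at that level in every library. WRKY70 (AT3G56400), a group III factor that promotes salicylic acid defence and restrains jasmonate responses, was the most abundant member. It had 74.2 and 57.7 FPKM in K36M, against 368 FPKM in WT replicate 1 and 90.1 FPKM in WT replicate 2. This single gene made up 21.5% and 18% of the FPKM summed over the family in K36M and 36.1% and 25.2% in WT. The next levels belonged to WRKY15 (AT2G23320), WRKY11 (AT4G31550), WRKY18 (AT4G31800), WRKY17 (AT2G24570) and WRKY33 (AT2G38470), with means over all libraries of 37.1, 25.7, 23.5, 22.1 and 21.5 FPKM. Values of single libraries for WRKY11, WRKY18, WRKY17 and WRKY33 overlap one another, so their order is not resolved. Nor was WRKY15 above them in every library. In K36M replicate 2 it had 25.7 FPKM and WRKY18 30.8 FPKM, and in WT replicate 1 it had 49.5 FPKM and WRKY33 53.1 FPKM. Summed over the family, the level was 345 and 320 FPKM in K36M, against 1021 FPKM in WT replicate 1 and 357 FPKM in WT replicate 2. Without WRKY70 the sums were 271 and 262 FPKM in K36M and 652 and 267 FPKM in WT. Only WRKY70 exceeded a mean of 50 FPKM among these members.

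**Figure D1:**
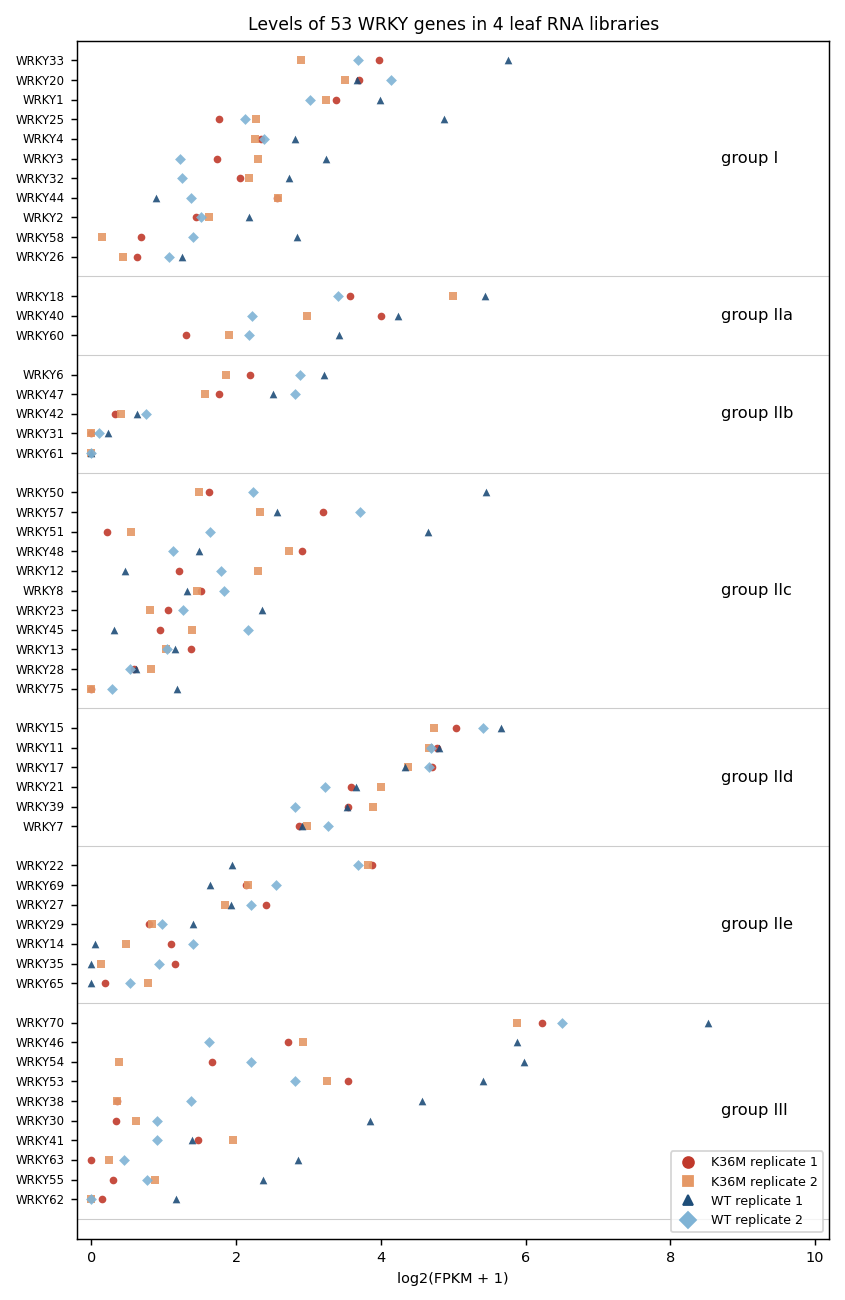
Levels of the 53 WRKY genes as log2(FPKM + 1) on the horizontal axis, 1 row per gene, in structural groups and ordered by mean within each, with 1 symbol per library. WT replicate 1 is the highest library for most group III genes, while the group IId genes WRKY11 and WRKY17 lie close together in every library.

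No WRKY gene passed the test between K36M and WT. With limma on log2(FPKM + 1) over 17738 features and Benjamini-Hochberg adjustment, 7 features were called (0.0395% of those tested) and 0 of the 43 tested members, each with a limma adjusted p of 1. By direction, 0.0113% of all tested features were called lower and 0.0282% higher in K36M. At an unadjusted limma p under 0.05 there were 6 members lower and 2 higher in K36M, against 2.37% and 1.74% of all tested features. The median log2 fold change over the 43 was -0.31, beside -0.05 over all tested features, and 30 members were below 0 and 13 above, where 54.4% of all features were below 0. Fold changes past 1 log2 unit were seen downward in 12 members (5.46% of all tested features) and upward in 3 (4.73%). The K36M libraries were both under the lower WT library in 15 members (19.3% of all tested features) and both over the higher one in 5 (12.1%). The groups overlapped in the remaining 23. After scaling to a common FPKM sum without AT2G01021, 9 members were below and 3 above in this sense. The share of all tested features is not given for that scaling. Differences were also taken within replicate 1 and within replicate 2, in case these numbers mark batches, because only the values of the replicate 2 libraries of both groups stand in whole-number ratios (86.6% of low genes, against 2.0% to 3.0% for other pairs). Within each number, which leaves 1 library per group and no test, K36M was below WT in both comparisons for 18 members (28% of all tested features), above in both for 6 (20.4%) and in opposite directions for 19 (50.9%). Differences of over 1 log2 unit below WT were found for 18 members in the replicate 1 libraries (13.8% of all tested features) and for 7 in the replicate 2 libraries (4.37%). Above WT by that much were 3 members in the replicate 1 libraries (10.6%) and 7 in the replicate 2 libraries (7.8%).

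**Figure D2:**
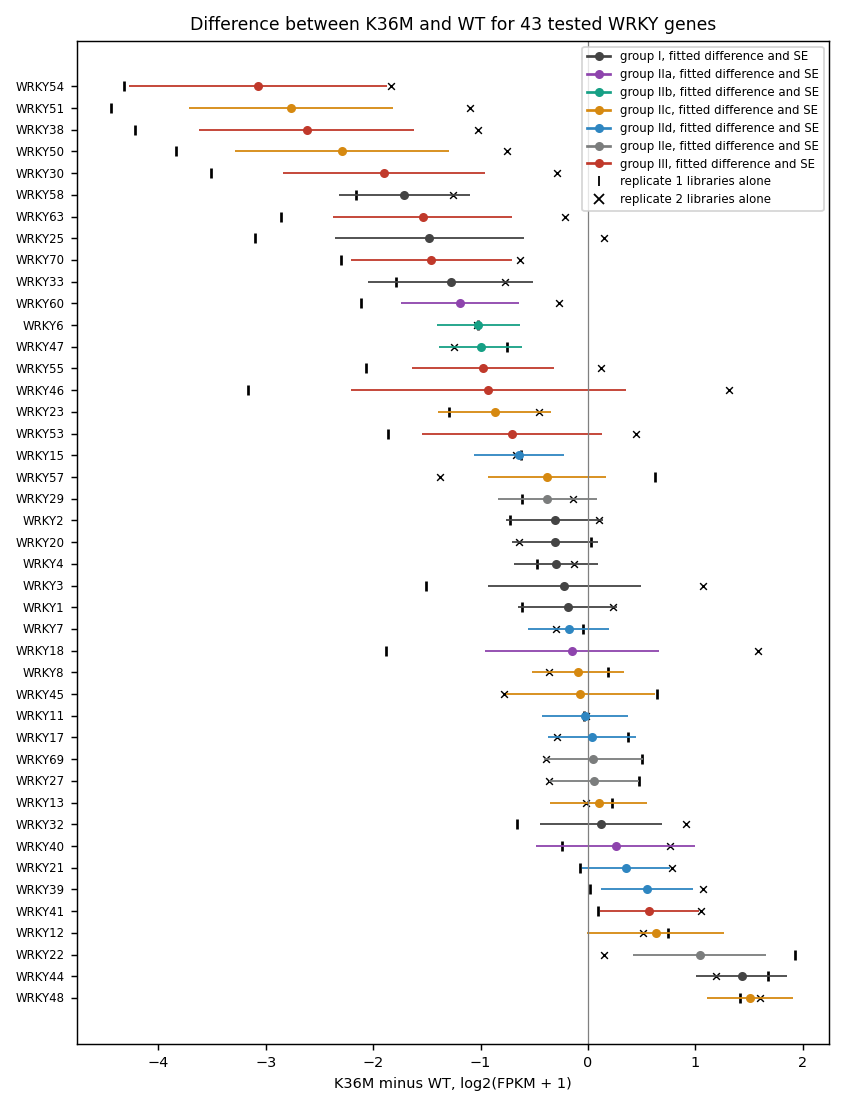
Fitted difference between K36M and WT on the log2(FPKM + 1) scale with its standard error (dot and bar, coloured by structural group) for the 43 tested WRKY genes, with the difference of the replicate 1 libraries (vertical dash) and of the replicate 2 libraries (cross). The differences run from -3.07 for WRKY54 to 1.51 for WRKY48, and dash and cross lie far apart for WRKY46, WRKY25 and WRKY18.

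The WT libraries differed from each other more than the K36M libraries did. WT replicate 1 exceeded WT replicate 2 by over 1 log2 unit in 19 of the 43 members (15.3% of all tested features) and lay below it by that much in 4 (18.6%). Between the K36M libraries, 3 members were over 1 log2 unit higher in replicate 1 (1.39% of all tested features) and 2 were lower by that much (6.38%). WT replicate 1 was the highest of all libraries for 26 members, beside 34% of all tested features. In 12 members WT replicate 1 lay above both K36M values while WT replicate 2 did not (21.5% of all tested features). Without WT replicate 1 the median over members was -0.16, beside -0.12 over all tested features, and no member was called. In that fit 0.0677% of all tested features were called lower and 0.00564% higher. Without WT replicate 2 the median was -0.68, beside 0.00, and 9 members were called lower (2.88% of all tested features) and none higher (1.08%). Those 9 were WRKY38 (AT5G22570), WRKY51 (AT5G64810), WRKY50 (AT5G26170), WRKY30 (AT5G24110), WRKY63 (AT1G66600), WRKY46 (AT2G46400), WRKY54 (AT2G40750), WRKY25 (AT2G30250) and WRKY58 (AT3G01080), with limma adjusted p from 0.018 to 0.043 there, against 0.15 or more for every member in the other alternatives run. In each of these fits the lone WT library is assumed to vary like the K36M libraries. Among those 9, WRKY38, WRKY51 and WRKY58 passed the filter only through WT, and WRKY30 and WRKY63 through WT replicate 1 alone. The filter itself favours a lower K36M value in such genes.

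**Figure D3:**
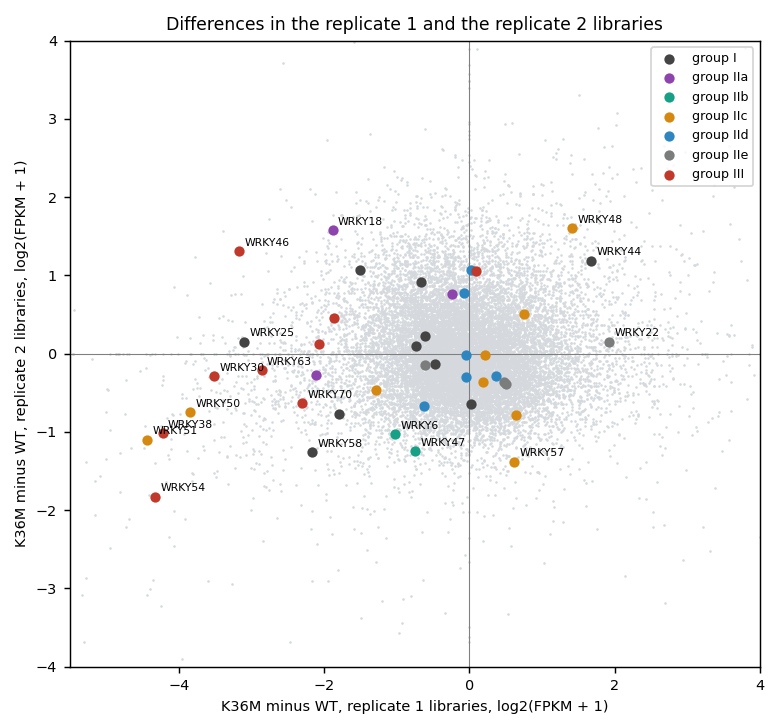
Difference between K36M and WT in the replicate 2 libraries (vertical axis) against that in the replicate 1 libraries (horizontal axis), both in log2(FPKM + 1), with 1 grey point per tested feature and WRKY genes coloured by structural group. Many WRKY genes lie far to the left and near the horizontal zero line, WRKY54, WRKY51 and WRKY38 lie to the left and below it, and WRKY48 and WRKY44 lie above it on the right.

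Group III, which holds several salicylic acid responsive members, had a median log2 fold change of -1.46 over its 9 tested genes. It was -0.33 without WT replicate 1, where the group IIc median was -0.34. In 8 genes the value was below 0 (54.4% of all tested features), and 5 had K36M values below both WT values (19.3%). The 8 include WRKY30, WRKY38, WRKY55 and WRKY63, which passed the filter only through WT, so the filter favoured this direction in them. All of these but WRKY55 are also among the 5. The summed level of the 10 listed genes was 95.3 and 77.9 FPKM in K36M, against 580 and 106 FPKM in WT. Within replicate 1 the group III median was -2.86 and within replicate 2 it was -0.21. WRKY54, the closest relative of WRKY70 and, with it, a restraint on leaf senescence, had 2.18 and 0.303 FPKM in K36M and 62.3 and 3.63 FPKM in WT. Both K36M values were below both WT values, although the WT libraries differed by 3.77 log2 units. Its log2 fold change was -3.07 ± 1.2 (SE; limma unadjusted p = 0.042), -1.19 without WT replicate 1 and -4.96 without WT replicate 2. For WRKY70 the log2 fold change was -1.46 ± 0.75 (SE), with -0.46 and -2.47 in the same pair of fits. WRKY38, a restraint on basal defence that binds a histone deacetylase, had 0.276 and 0.281 FPKM in K36M, against 22.8 and 1.59 FPKM in WT. The K36M libraries were nearly equal and both lay below WT, at a log2 fold change of -2.62 ± 1.0 (SE; limma unadjusted p = 0.039), and at -1.02 and -4.22 without WT replicate 1 and 2. Its partner WRKY62 (AT5G01900) was near the floor of the table, at 0.106 and 0 FPKM in K36M and at 1.25 and 0 FPKM in WT, and was not tested.

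WRKY30, a stress-induced factor, and WRKY63, known as ABO3 for its part in abscisic acid and drought responses, had the same order of libraries. WRKY30 had 0.264 and 0.527 FPKM in K36M and 13.4 and 0.866 FPKM in WT, a log2 fold change of -1.9 ± 0.94 (SE). WRKY63 was listed at 0 and at 0.179 FPKM in K36M and had 6.25 and 0.369 FPKM in WT. In both genes WT replicate 2 was just above the K36M libraries, and without WT replicate 1 the log2 fold changes were -0.43 and -0.33. The senescence regulator WRKY53 (AT4G23810) had 10.7 and 8.55 FPKM in K36M, against 41.4 and 6.01 FPKM in WT. WRKY46, which acts with WRKY70 and WRKY53 in basal defence, had 5.59 and 6.62 FPKM in K36M and 58.2 and 2.08 FPKM in WT. For both of these, K36M lay between the WT libraries, and leaving out WT replicate 1 turned the log2 fold change of WRKY46 to 1.2 (-0.93 with all libraries) and that of WRKY53 to 0.59 (-0.71 with all libraries). WRKY55 (AT2G40740), the neighbour of WRKY54 on the chromosome and another factor in senescence, had 0.232 and 0.842 FPKM in K36M and 4.18 and 0.695 FPKM in WT. WRKY41 (AT4G11070), a defence-related factor, had the other order, with 1.78 and 2.89 FPKM in K36M, above 1.62 and 0.872 FPKM in WT, and a log2 fold change of 0.57 ± 0.46 (SE).

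In group IIc, WRKY50 and WRKY51 followed the group III pattern, but the group as a whole did not. Its median log2 fold change was -0.09 over 9 tested genes, with 6 below 0 (54.4% of all tested features) and 3 above. K36M values were below both WT values in 3 of them (19.3%) and above both in 1 (12.1%). WRKY51, among the 3, passed the filter only through WT. WRKY50, which binds the PR1 promoter, had 2.07 and 1.8 FPKM in K36M, against 43 and 3.69 FPKM in WT. WRKY51, which acts with WRKY50 where salicylic acid represses jasmonate signalling, had 0.159 and 0.458 FPKM in K36M, against 24.2 and 2.12 FPKM in WT. Both K36M libraries were below both WT libraries in each gene. The log2 fold changes were -2.29 ± 1.0 and -2.77 ± 0.95 (SE; limma unadjusted p = 0.06 and 0.027). Without WT replicate 1 they were -0.68 and -1.26, and without WT replicate 2 they were -3.91 and -4.28.

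Group IIa holds 3 interacting relatives that restrain defence and act in abscisic acid responses, and their values did not share one order of libraries. WRKY18 had 10.9 and 30.8 FPKM in K36M and 42.6 and 9.62 FPKM in WT. WRKY40 (AT1G80840) had 15.0 and 6.92 FPKM in K36M and 17.9 and 3.67 FPKM in WT. In both genes the groups overlapped, and the sign of the difference within replicate 1 was opposite to that within replicate 2 (-1.88 and 1.58 log2 units for WRKY18, -0.24 and 0.76 for WRKY40). WRKY60 (AT2G25000) had 1.48 and 2.73 FPKM in K36M, below 9.7 and 3.51 FPKM in WT, at a log2 fold change of -1.19 ± 0.55 (SE; limma unadjusted p = 0.071), and at -0.57 without WT replicate 1.

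In group IIb both tested genes had lower values in K36M within each replicate number, as did 28% of all tested features. WRKY6 (AT1G62300), a regulator of senescence and of phosphate export to the shoot, had 3.56 and 2.62 FPKM in K36M, against 8.27 and 6.38 FPKM in WT. WRKY47 (AT4G01720) had 2.38 and 1.96 FPKM in K36M, against 4.68 and 6.05 FPKM in WT. Both K36M values were below both WT values in each gene, as in 19.3% of all tested features. The WT libraries of each differed by 0.33 and -0.31 log2 units (WT replicate 1 minus WT replicate 2), where the group III median was 2.6. For WRKY6 the log2 fold change was -1.02 ± 0.39 (SE; limma unadjusted p = 0.04), -1.02 within replicate 1 and -1.03 within replicate 2. For WRKY47 it was -1.0 ± 0.39 (SE; limma unadjusted p = 0.044), -0.75 within replicate 1 and -1.25 within replicate 2. With any single library left out, the values stayed between -1.19 and -0.86 for WRKY6 and between -1.16 and -0.84 for WRKY47. WRKY42 (AT4G04450), which represses the same phosphate exporter as WRKY6, was under the filter at 0.254 and 0.33 FPKM in K36M and 0.544 and 0.679 FPKM in WT. WRKY31 (AT4G22070) was listed at 0 in both K36M libraries and had 0.177 and 0.0746 FPKM in WT.

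Group I was mixed, with 8 of 10 tested genes below 0 (54.4% of all tested features) and 2 with K36M values below both WT values, about the share of all tested features (19.3%). WRKY58, among the 2, passed the filter only through WT. WRKY33, the regulator of camalexin synthesis and of resistance to necrotrophic fungi, had 14.7 and 6.46 FPKM in K36M, against 53.1 and 11.8 FPKM in WT. K36M replicate 1 was above WT replicate 2, so the groups overlapped, and the log2 fold change of -1.28 ± 0.77 (SE) was -0.24 without WT replicate 1. WRKY25, a substrate of the kinase MPK4, had 2.4 and 3.82 FPKM in K36M, against 28.3 and 3.35 FPKM in WT, so that WT replicate 1 alone stood out. WRKY58, known to restrain systemic acquired resistance, had 0.61 and 0.107 FPKM in K36M, against 6.17 and 1.65 FPKM in WT. It was lower in K36M within both numbers, at -2.16 and -1.26 log2 units, with a log2 fold change of -1.71 ± 0.61 (SE; limma unadjusted p = 0.031), and -0.99 without WT replicate 1. WRKY4 (AT1G13960), which acts with WRKY3 (AT2G03340) against necrotrophs, had 4.08 and 3.78 FPKM in K36M, just below 6.04 and 4.24 FPKM in WT. WRKY3 had 2.32 and 3.92 FPKM in K36M, inside the 8.49 and 1.34 FPKM of WT. The levels of WRKY1 (AT2G04880), WRKY2 (AT5G56270), WRKY20 (AT4G26640) and WRKY32 (AT4G30935) also overlapped between groups, with log2 fold changes from -0.31 to 0.12. WRKY20 was the most abundant of these, with 12 and 10.4 FPKM in K36M and 11.7 and 16.7 FPKM in WT. WRKY1 had 9.42 and 8.48 FPKM in K36M and 14.9 and 7.1 FPKM in WT. WRKY2, which acts in the polarity of the zygote, had 1.73 and 2.07 FPKM in K36M and 3.53 and 1.86 FPKM in WT. WT replicate 1 was the highest library for WRKY1, WRKY2 and WRKY32, and WT replicate 2 for WRKY20.

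Values were higher in both K36M libraries than in either WT library for 5 genes, each of another structural group, a count near the share of all tested features (12.1%). WRKY48 (AT5G49520), a group IIc factor that represses basal defence against bacteria, had 6.5 and 5.61 FPKM in K36M, against 1.8 and 1.18 FPKM in WT. Both replicates of each group lay close together, and the log2 fold change was 1.51 ± 0.4 (SE; limma unadjusted p = 0.009), 1.42 within replicate 1 and 1.6 within replicate 2. WRKY44 (AT2G37260), the group I gene also called TTG2 that acts in trichome and seed coat development, had 4.92 and 4.96 FPKM in K36M, against 0.855 and 1.6 FPKM in WT. Its log2 fold change was 1.43 ± 0.42 (SE; limma unadjusted p = 0.013), 1.68 within replicate 1 and 1.19 within replicate 2. The 4 trichome markers (GL2, GL1, GL3, TRY) summed to 23.7 and 21.1 FPKM in K36M and to 19.0 and 30.7 FPKM in WT, most of it TRY. GL2 had 3.3 and 2.15 FPKM in K36M and 1.41 and 6.21 FPKM in WT, and GL1 had 0.963 and 2.13 FPKM in K36M and 0 and 1.22 FPKM in WT, and the part of trichomes in the WRKY44 values was not tested. Leaving out any single library kept WRKY48 between 1.33 and 1.69 and WRKY44 between 1.19 and 1.68. The floral organ markers were likewise higher in both K36M libraries, with sums of 7.77 and 15.0 FPKM in K36M against 0.444 and 1.32 FPKM in WT, and the part of floral tissue in these values was not tested. WRKY22 (AT4G01250) of group IIe, which acts downstream of the MAPK cascade triggered by bacterial flagellin, had 13.7 and 13.2 FPKM in K36M, against 2.84 and 11.8 FPKM in WT. Here WT replicate 1 was the low library, and the log2 fold change of 1.04 ± 0.62 (SE) was 0.17 without it. WRKY39 (AT3G04670), a heat-stress factor, had 10.7 and 13.8 FPKM in K36M, above 10.6 and 6.02 FPKM in WT, and WRKY41 completes the 5.

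Group IId proteins bind calmodulin, and the summed level of their genes was the most even of the groups across libraries. It was 111 and 106 FPKM in K36M and 124 and 114 FPKM in WT, and the median log2 fold change was 0.01. WRKY11 and WRKY17, related restraints on resistance to Pseudomonas, had 26.3 and 24.5 FPKM and 25.0 and 19.8 FPKM in K36M, against 27.0 and 24.8 FPKM and 19.1 and 24.4 FPKM in WT. Their log2 fold changes were -0.03 ± 0.4 and 0.04 ± 0.41 (SE), and neither keeps its sign under every scaling or library left out. WRKY15, linked to growth under osmotic and oxidative stress, had 31.9 and 25.7 FPKM in K36M, below 49.5 and 41.4 FPKM in WT. Its log2 fold change was -0.64 ± 0.42 (SE; limma unadjusted p = 0.18), with -0.62 within replicate 1 and -0.67 within replicate 2. WRKY7 (AT4G24240) had 6.27 and 6.85 FPKM in K36M and 6.55 and 8.66 FPKM in WT. WRKY21 (AT2G30590) had 11 and 15.0 FPKM in K36M and 11.6 and 8.36 FPKM in WT. In both genes the groups overlapped.

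The remaining tested members, all of groups IIc and IIe, gave small or uneven differences. Only in WRKY23 and WRKY29 among them were both K36M values below both WT values (19.3% of all tested features). WRKY29 passed the filter through WT replicate 1 alone. WRKY12 (AT2G44745) and WRKY13 (AT4G39410), which act in opposite ways on flowering time, had 1.31 and 3.94 FPKM and 1.6 and 1.04 FPKM in K36M, against 0.377 and 2.46 FPKM and 1.23 and 1.07 FPKM in WT. WRKY45 (AT3G01970), a factor in phosphate uptake and age-dependent senescence, had 0.926 and 1.61 FPKM in K36M, between the 0.24 and 3.47 FPKM of WT. WRKY57 (AT1G69310), which promotes drought tolerance, had 8.15 and 4.05 FPKM in K36M and 4.94 and 12.1 FPKM in WT. The groups overlapped in all 4 of these genes. WRKY23 (AT2G47260), an auxin-responsive factor, had 1.09 and 0.751 FPKM in K36M, below 4.12 and 1.4 FPKM in WT. WRKY29 (AT4G23550), which acts with WRKY22, had 0.73 and 0.783 FPKM in K36M, below 1.64 and 0.965 FPKM in WT. WRKY8 (AT5G46350), WRKY27 (AT5G52830) and WRKY69 (AT3G58710) had means between 1.91 and 3.47 FPKM and log2 fold changes from -0.09 to 0.06. WRKY27, which affects symptoms of bacterial wilt, had 4.31 and 2.58 FPKM in K36M and 2.8 and 3.6 FPKM in WT. WRKY69 had 3.4 and 3.49 FPKM in K36M, between the 2.12 and 4.87 FPKM of WT, and WRKY8 likewise lay between its WT libraries.

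The 10 members under the filter were WRKY26 (AT5G07100), WRKY14 (AT1G30650), WRKY28 (AT4G18170), WRKY35 (AT2G34830), WRKY42, WRKY75 (AT5G13080), WRKY62, WRKY65 (AT1G29280), WRKY31 and WRKY61, with means of 0.849 FPKM or less and no single value over 1.64 FPKM. The member just inside the filter was WRKY29 with a mean of 1.03 FPKM. WRKY75, a factor in phosphate starvation and senescence, was listed at 0 in both K36M libraries and had 1.28 and 0.212 FPKM in WT. WRKY28, an activator of salicylic acid synthesis, had 0.509 and 0.771 FPKM in K36M and 0.537 and 0.453 FPKM in WT. WRKY26, a heat tolerance factor related to WRKY25, had 0.54 and 0.359 FPKM in K36M, below 1.39 and 1.11 FPKM in WT. WRKY14, WRKY35 and WRKY65 had 1.15, 1.22 and 0.141 FPKM in K36M replicate 1 and 0.398, 0.0982 and 0.716 FPKM in K36M replicate 2, against 0.0344, 0 and 0 FPKM in WT replicate 1 and 1.64, 0.909 and 0.441 FPKM in WT replicate 2. Their groups overlapped, with WT replicate 1 lowest in each. A value of 0 in this table is a listing and not a measure of absence.

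Genes that act with WRKY factors were read from 5 further lists, and none of their tested members was called (limma, 0.0395% of all tested features called). In the MAPK list all 10 genes were tested, 9 were below 0 (54.4% of all tested features) and 6 had K36M values below both WT values (19.3%). The median log2 fold change was -0.78, and it was -0.38 without WT replicate 1. MPK11, a pathogen-induced relative of MPK4, had 0.79 and 0.512 FPKM in K36M, against 30.8 and 2.72 FPKM in WT. MKK5, a kinase upstream of MPK3 and MPK6, had 8.95 and 7.31 FPKM in K36M, against 19.2 and 16.2 FPKM in WT, with the WT libraries close to each other. MKK1 (MEK1 in RefSeq) and MKK2, which act upstream of MPK4, had 4.99 and 4.34 FPKM and 22.1 and 18.9 FPKM in K36M, against 45.4 and 7.83 FPKM and 99.8 and 23.1 FPKM in WT.

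Among 14 tested VQ-motif genes of 18 listed, 9 were below 0 (54.4% of all tested features) and 5 had K36M values below both WT values (19.3%). The median was -0.18, against -0.36 when WT replicate 1 was left out and -0.4 when WT replicate 2 was left out. SIB1, which binds WRKY33, had 14.1 and 6.54 FPKM in K36M, against 99.6 and 17.8 FPKM in WT, and its relative SIB2 had 23.2 and 21.9 FPKM in K36M, against 55.6 and 31.8 FPKM in WT. AT1G78410 had 0.374 and 0.752 FPKM in K36M, against 17.1 and 1.55 FPKM in WT. JAV1 (AT3G22160), a repressor of jasmonate defence, had 6.73 and 1.85 FPKM in K36M, against 15.9 and 6.73 FPKM in WT, so that a library of each group stood at the same level.

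Of the 14 salicylic acid genes, 13 were below 0 (54.4% of all tested features) and 8 had K36M values below both WT values (19.3%). Their median was -1.48, and it was -0.42 without WT replicate 1. Their summed level was 84.5 and 104 FPKM in K36M, against 1787 and 406 FPKM in WT, most of the WT sums being PR1, PR2 and PR5. WT replicate 1 was also the highest library here, and the part of salicylic acid signalling in the WRKY values was not tested. For EDS1, PAD4, SAG101, PBS3, NPR3 and NPR4 the groups overlapped, and K36M replicate 2 was above WT replicate 2 in each. PR1, a secreted defence protein, had 0.195 and 2.88 FPKM in K36M, against 314 and 82.4 FPKM in WT, or -6.23 ± 0.83 log2 units (SE) at a limma adjusted p of 0.31. PR2 (BGL2 in RefSeq) and PR5 had 4.0 and 7.76 FPKM and 9.03 and 12.4 FPKM in K36M, against 561 and 132 FPKM and 403 and 113 FPKM in WT. In these 3 genes WT replicate 2 also stood far above both K36M libraries. The regulator SARD1 had 4.66 and 5.61 FPKM in K36M, against 64.1 and 8.93 FPKM in WT. Of 5 tested genes downstream of WRKY33 (7 listed), PAD3, the last enzyme of camalexin synthesis, had 0.0395 and 0.157 FPKM in K36M, against 26.7 and 0.968 FPKM in WT. CYP71A13 of the same pathway had 2.1 and 1.6 FPKM in K36M, against 14.5 and 6.17 FPKM in WT. CYP79B3, which makes their shared precursor, had 46.2 and 46.3 FPKM in K36M and 29.3 and 49.4 FPKM in WT. ACS6, an ethylene synthesis enzyme, went the other way, with 93.2 and 88.8 FPKM in K36M, against 20.4 and 37.0 FPKM in WT. Among the tested genes of this list, 2 had K36M below both WT values (19.3% of all tested features) and 1 above (12.1%). CYP71A12, under the filter, had 0 and 0.0771 FPKM in K36M, below 2.91 and 0.396 FPKM in WT.

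The 4 tested of 6 listed senescence genes had a median of -0.26, with 3 below 0 (54.4% of all tested features) and 1 with K36M values below both WT values (19.3%). SAG13, a senescence-associated oxidoreductase gene, had 0.997 and 2.79 FPKM in K36M, against 42.0 and 31.0 FPKM in WT, and its WT libraries were close together. The senescence regulator ORE1 (NAC6 in RefSeq) had 2.12 and 3.37 FPKM in K36M and 0.595 and 2.99 FPKM in WT, a pair that overlapped. SEN1 had 2.24 and 6.39 FPKM in K36M and 4.72 and 6.49 FPKM in WT. The chlorophyll breakdown gene NYE1 had 10.9 and 14 FPKM in K36M and 15.0 and 11.7 FPKM in WT. SAG12 was listed at 0 in every library.

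**Figure D4:**
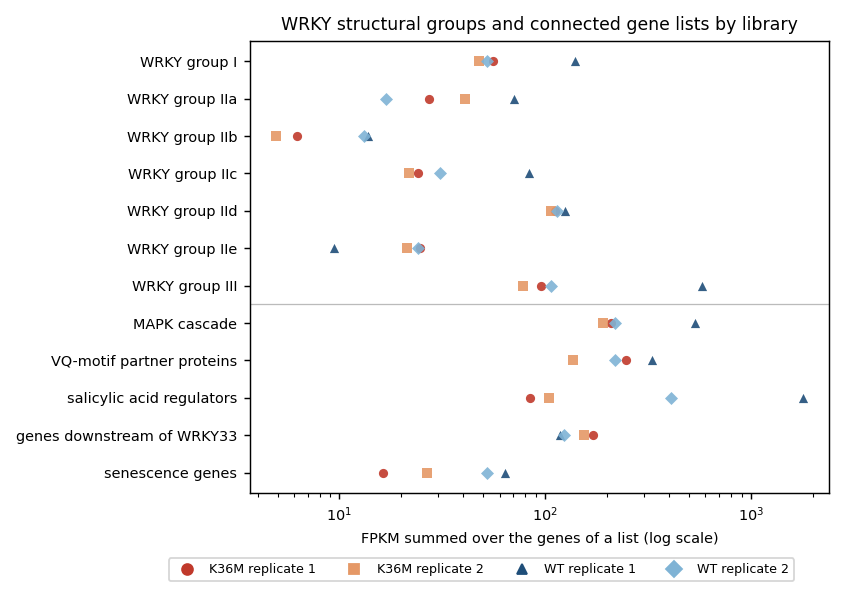
FPKM summed over the genes of each WRKY structural group (above the line) and of the 5 connected gene lists (below it), on a log axis, with 1 symbol per library. WT replicate 1 is far to the right for group III (580 FPKM, the others 77.9 to 106) and for the salicylic acid genes (1787 FPKM), and the 4 libraries lie close together for group IId.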

How the data were processed

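The authors deposited FPKM for 33302 features in 4 leaf RNA libraries, made with a stranded mRNA kit per the labels' protocols. Bowtie2, bedtools and the TAIR10 build are named in the submitters' processing notes; the program behind the FPKM is not given in the sources used here, nor is its handling of strand. Sequencing depth is unknown, so precision rests on the 2 replicates per group. Gene names came from RefSeq (TAIR10.1), in which all 53 members were found; no coordinates are printed because the builds differ, and gene sequences were not used here.

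Values were compared as log2(FPKM + 1), a scale that shrinks differences of low genes, in the 17738 features averaging 1 FPKM or more. The test was limma 3.58.1 in R 4.3.3 (mean-variance trend, two-sided, Benjamini-Hochberg, threshold 0.05). It was also run on 10 simulated data sets, whose outcome is not given here. All libraries varied alike in them, so they do not cover a library that stands apart, as WT replicate 1 did. With 2 libraries against 2, an exact permutation test of a single value cannot go below p = 0.33 and was not used. No count model was run. Whole-number ratios were sought among genes under 1 FPKM in both libraries (whole numbers up to 12, tolerance 0.0005 on the natural log scale). Close relatives in the family may share reads, which was not examined. Members, structural groups and lists were chosen with earlier results of these data known. Genes named are the 6 most abundant members, 16 fixed members and up to 4 genes per list. Also named are up to 10 lower and 10 higher members whose groups do not overlap. The remaining members were added after their values were seen so that every member is accounted for. SAG12 and the salicylic acid genes whose groups overlap were likewise added after their values were seen. Other steps used Python 3.11.15 with pandas 2.3.3 and matplotlib 3.10.9. The 13 alternatives covered the pseudocount, filter, variance trend, scaling, gene length, replicate number as a block and each library left out.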

Additional observations from a re-analysis of the deposited data

How the results depend on the processing

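No WRKY member was called under the 9 alternatives that keep all libraries, where the lowest limma adjusted p of a member was 0.15. Over all features, where 7 were called in the main analysis, 0 were called with no filter, 0 with the replicate number as a block, 28 with that block plus a correction for gene length, and 0 to 702 with 1 library left out. The block left the members at 0 calls and a median of -0.31. The replicate numbers are not known to pair the samples: deviations of same-numbered libraries correlated at 0.13 across genes. With 1 library left out, the median over members ranged from -0.68 to -0.16, 19 to 27 members had K36M below WT and 7 to 13 had K36M above. Any feature separates more easily when a group holds a lone library, so these counts cannot be set against those of all libraries. A mean of at least 5 FPKM left 7 members below and 2 above, fewer members being tested, and a common FPKM sum without AT2G01021 left 9 and 3 (the cause was not tested). The share of all tested features is not given for any of these alternatives. Signs turned for WRKY45 with a pseudocount of 0.1 (0.27) and the common sum (0.09), for WRKY11 with median-ratio scaling (0.04) and the common sum (0.07), and for WRKY8 with the gene length trend removed (0.02 with or without the block); the other 40 members kept theirs. With 1 library left out, 25 of 43 members kept their sign, and the log2 fold changes of the others ranged from -0.68 to 0.29 for WRKY1, -0.65 to 0.02 for WRKY2, -1.23 to 0.79 for WRKY3, -0.35 to 0.00 for WRKY7, -0.34 to 0.17 for WRKY8, -0.09 to 0.03 for WRKY11, -0.04 to 1.29 for WRKY12, -0.08 to 0.27 for WRKY13, -0.13 to 0.21 for WRKY17, -1.17 to 0.87 for WRKY18, -0.23 to 0.35 for WRKY27, -0.61 to 0.86 for WRKY32, -0.75 to 1.27 for WRKY40, -1.0 to 0.85 for WRKY45, -3.06 to 1.2 for WRKY46, -2.0 to 0.59 for WRKY53, -0.95 to 0.19 for WRKY57 and -0.4 to 0.51 for WRKY69. The planned count of W-box motifs was not run, as no sequences were used. Depth is unknown, and values under 1 FPKM carry an unknown counting error.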

Other observations

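Outside the listed members, 18 further genes with a WRKY name had a row, and 3 of them had a mean of at least 1 FPKM. These 3, WRKY16, WRKY52 and WRKY19, encode WRKY domains joined to immune receptor domains, and were chosen for description after their values were seen. WRKY16 had 2.98 and 1.99 FPKM in K36M and 6.64 and 2.0 FPKM in WT. WRKY52, the receptor RRS1, had 1.34 and 0.97 FPKM in K36M and 4.46 and 0.97 FPKM in WT. WRKY19 had 1.02 and 0.951 FPKM in K36M, below 4.2 and 1.51 FPKM in WT. WT replicate 1 was the highest library in all 3, and none was called (limma adjusted p = 1). The other 15 had means of 0.545 FPKM or less.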
